A study of Mus musculus with 7 samples.

Results

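The 10 genes described here are the usual identity markers of endothelial cells, the cells that line blood vessels: Pecam1, Cdh5, Kdr, Flt1, Tek, Tie1, Vwf, Eng, Egfl7 and Esam. They were chosen by name, as the rows of the gene table whose symbol is one of these, and all 10 were found among its 29869 genes. RNA sequencing was done on whole soleus, a slow-twitch hindlimb muscle, of mice 60 days old. Shared by all of them was mdx, a mutation of the dystrophin gene used as a mouse model of Duchenne muscular dystrophy. The libraries labelled mdx/Runx1f/f (3, from animals 359, 363 and 374) come from mdx mice with floxed Runx1, which encodes a transcription factor, and the libraries labelled mdx (4, from animals 358, 361, 373 and 375) from mdx mice without that label. The labels name no Cre driver, so the cells meant to lose Runx1 are unknown here, and no animal without mdx was included.

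Endothelial cells respond to VEGF, secreted largely by muscle fibres and other tissue cells, through the receptor tyrosine kinase Kdr, while Flt1 binds the same ligands and acts mainly as a decoy. A parallel system consists of the receptor Tek (Tie2), its partner Tie1, the agonist Angpt1 and the context-dependent antagonist Angpt2, and it keeps vessels quiescent. Adhesion molecules such as Pecam1, Cdh5 and Esam hold the cells together, and each member of the group is used as a sign of endothelium in tissue RNA, although their levels differ between capillaries, veins and arteries.

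Label conflicts bear on every direction given here. The sample titles, which set the groups, give 3 mdx/Runx1f/f and 4 mdx animals, while the design text of the series counts them the other way round. A second label field lists the animal numbers in ascending order and so ties most of them to another sample. Runx1 itself had 919, 925 and 596 normalised counts in the libraries labelled mdx/Runx1f/f, against 274, 273, 235 and 201 in the mdx libraries. These groups do not overlap, and the libraries labelled mdx/Runx1f/f had 3.33 times as much Runx1 (log2 fold change 1.74, SE 0.18, adjusted p = 0.00795). Total Runx1 RNA was thus not lower under that label. Counts from whole muscle do not show which cells this RNA came from, or whether the floxed part was among those counted. Whether Runx1 was lost in the targeted cells was not tested. Normalised counts are read counts that the authors divided by 1 size factor per library, and p-values come from the quasi-likelihood test of edgeR, adjusted by Benjamini-Hochberg over the 14033 genes tested, a gene being called below 0.05. Total counts per library were 16218306 to 20847902. Libraries also differed in ways the groups do not explain: Myh4, the fast IIb myosin heavy chain, had 246072, 53268 and 1293 normalised counts in the libraries labelled mdx/Runx1f/f, against 739, 2019, 8982 and 3277 in the mdx libraries.

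Of the 10 endothelial identity genes, 1 was called. Vwf was higher in libraries labelled mdx/Runx1f/f than in mdx libraries, by 1.86-fold, and the other 9 did not pass the test in either direction. Among all genes tested, edgeR called 6.95%, 5.1% higher and 1.85% lower, so 1 of 10 members higher and 0 of 10 lower is close to the background. DESeq2 also called 1 member higher and 0 lower, where it called 17% of all genes, 10.7% higher and 6.32% lower. The count was the same by limma-voom, which called 7.3%, 5.24% higher and 2.05% lower. At an unadjusted edgeR p below 0.05 there was likewise 1 member, beside 29.5% of all genes. The members' median log2 fold change was 0.0020, beside -0.0016 over all genes tested. All 10 passed the filter on low counts, with raw counts between 682 and 5465 per library, so low depth did not remove any of them. Summed over the 10 genes, the level was 17178 to 21816 normalised counts in the libraries labelled mdx/Runx1f/f and 14885 to 24080 in the mdx libraries. In whole muscle, fewer endothelial cells and less RNA per endothelial cell cannot be told apart.

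**Figure D1:**
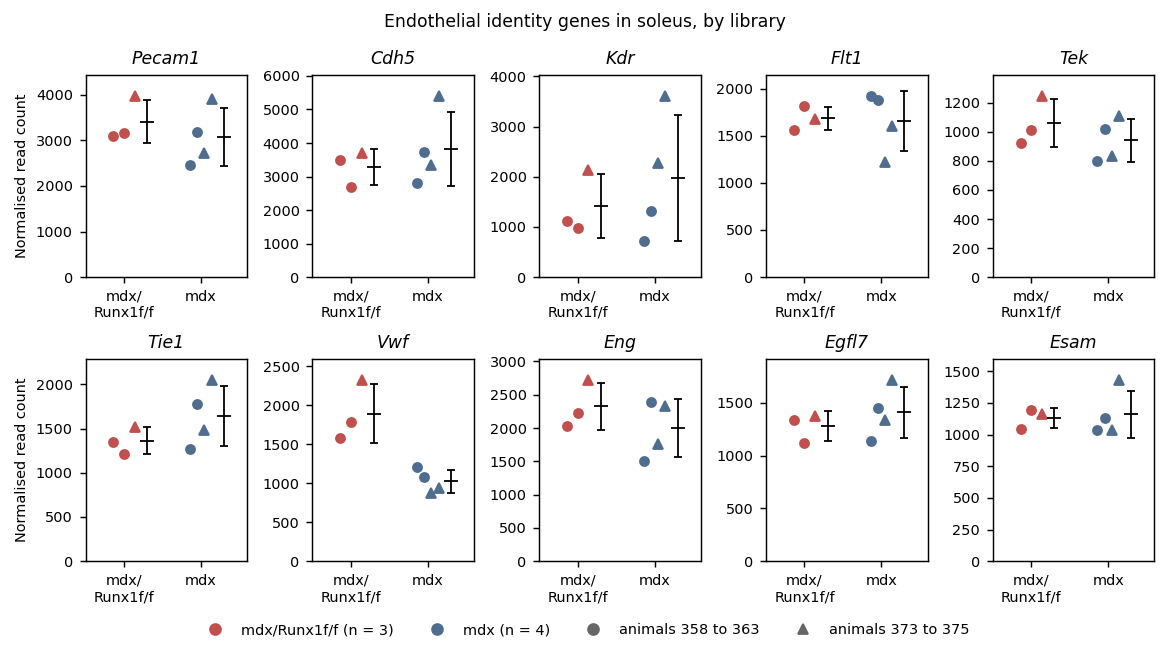
Normalised read count (y axis, linear from 0) of each endothelial identity gene in each library, with mdx/Runx1f/f on the left of each panel and mdx on the right; circles are animals 358 to 363, triangles animals 373 to 375, and the bars give the mean and SD over 3 and 4 libraries. The groups are apart for Vwf only, at 1575 or more against 1212 or less, and the triangles stand above the circles for Kdr.

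Neither of the VEGF receptors was called. Kdr, the main signalling receptor for VEGF-A, had 1120.3, 973 and 2139.6 normalised counts in the libraries labelled mdx/Runx1f/f, against 721, 1312, 2264 and 3603 in the mdx libraries (mean 1411 ± 635 and 1975 ± 1258, SD, n = 3 and 4). The groups overlap: 1 mdx library lies within the range of the libraries labelled mdx/Runx1f/f, 1 below it and 2 above it. Its log2 fold change was -0.48 (SE 0.52, 95% interval -1.69 to 0.73, adjusted p = 0.575). Kdr was the most variable member, with a 5.00-fold ratio of its highest to its lowest library, against 1.38-fold to 2.65-fold for the other 9. Its libraries were separated by animal number: the 3 animals numbered 373 to 375 had 2139.6 or more, and the 4 numbered 358 to 363 had 1312 or less. Kdr was the only member whose number series did not overlap, a pattern found in 11.4% of all genes tested. The labels do not call the number series a batch. With the series as a covariate the log2 fold change was -0.15, within animals 358 to 363 it was 0.06, within animals 373 to 375 it was -0.45, and without mdx replicate 4, the library with 3603, it was -0.02.

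Flt1, the decoy receptor, had 1564, 1810 and 1677 normalised counts in the libraries labelled mdx/Runx1f/f, against 1919, 1876, 1224 and 1604 in the mdx libraries (mean 1684 ± 123 and 1656 ± 319). The highest and the lowest of the 7 are both mdx libraries, so the libraries labelled mdx/Runx1f/f lie inside the mdx range. Its log2 fold change was 0.03 (SE 0.16, 95% interval -0.34 to 0.40, adjusted p = 0.919). Of the 7 libraries, mdx replicate 1 had the least Kdr and the most Flt1.

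Of the angiopoietin receptors, Tek had 921, 1015 and 1245 normalised counts in the libraries labelled mdx/Runx1f/f, against 798, 1020, 837 and 1112 in the mdx libraries (mean 1060 ± 167 and 942 ± 149). The ranges overlap. Tie1, the orphan partner of Tek, had 1352, 1214 and 1516, against 1272, 1773, 1479 and 2045 in the mdx libraries (mean 1361 ± 151 and 1643 ± 338). In the libraries labelled mdx/Runx1f/f, replicate 2 lies below the mdx range and the others in its lower part. The log2 fold change was 0.18 for Tek (SE 0.15, 95% interval -0.18 to 0.53, adjusted p = 0.467) and -0.26 for Tie1 (SE 0.17, 95% interval -0.66 to 0.13, adjusted p = 0.331).

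The start regions of the VEGF and Tie receptor genes are shown because ETS factors such as Erg and Fli1, which bind a GGAA core, are known drivers of endothelial promoters. The 250 bases before the start are given 5′ to 3′ along the gene, from RefSeq on GRCm38.p6, with each AGGAAG or its reverse complement CTTCCT in capitals. The windows are chr5:75978456-75978705 on the minus strand for Kdr, chr5:147726012-147726261 on the minus strand for Flt1, chr4:94739039-94739288 on the plus strand for Tek and chr4:118489850-118490099 on the minus strand for Tie1.
Kdr: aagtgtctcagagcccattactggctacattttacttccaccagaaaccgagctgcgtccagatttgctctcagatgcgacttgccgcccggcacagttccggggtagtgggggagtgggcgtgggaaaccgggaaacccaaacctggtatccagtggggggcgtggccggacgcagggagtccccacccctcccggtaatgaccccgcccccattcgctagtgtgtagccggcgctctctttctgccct
Flt1: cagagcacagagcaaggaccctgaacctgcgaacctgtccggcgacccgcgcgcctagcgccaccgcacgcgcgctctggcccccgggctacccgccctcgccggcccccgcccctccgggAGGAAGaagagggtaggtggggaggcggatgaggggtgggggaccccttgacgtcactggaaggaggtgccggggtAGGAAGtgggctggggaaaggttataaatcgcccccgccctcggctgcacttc
Tek: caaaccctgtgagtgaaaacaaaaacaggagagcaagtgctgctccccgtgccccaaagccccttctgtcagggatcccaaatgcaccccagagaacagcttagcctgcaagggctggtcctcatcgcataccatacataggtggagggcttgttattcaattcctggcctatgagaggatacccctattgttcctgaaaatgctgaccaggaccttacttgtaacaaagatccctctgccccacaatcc
Tie1: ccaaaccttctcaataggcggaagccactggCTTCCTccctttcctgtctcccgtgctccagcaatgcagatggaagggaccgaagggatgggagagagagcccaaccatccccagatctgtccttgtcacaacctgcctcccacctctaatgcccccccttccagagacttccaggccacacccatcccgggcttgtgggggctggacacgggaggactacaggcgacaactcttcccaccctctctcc
For AGGAAG or CTTCCT, Flt1 has 2 matches and Tie1 has 1, while Kdr and Tek have 0. The shorter GGAA core, or TTCC on the other strand, also occurs outside the capitals in all these windows. It was not marked or counted. Windows were found for 6 of the 10 members, 8 windows in all; 5 of the 8 hold the ETS letters, beside 29.5% of all 32851 windows in the RefSeq table, and 0 of the 8 hold TGTGGT or ACCACA, the core letters that Runx factors bind, beside 14% of all windows. Egfl7 alone has 3 of the 8 windows, with 3, 1 and 0 ETS matches, so the 8 do not stand for 8 separate genes. Both motifs were chosen after the sequences had been seen, matches were sought on both strands and the 2 motifs share no match. Erg and Fli1 themselves had log2 fold changes of -0.02 (adjusted p = 0.966) and 0.13 (adjusted p = 0.556). A match of letters is a description of the window only.

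The junction genes gave no call. Pecam1 (CD31), an adhesion molecule of the cell border, had 3105, 3169 and 3969 normalised counts in the libraries labelled mdx/Runx1f/f, against 2463, 3186, 2733 and 3911 in the mdx libraries (mean 3414 ± 481 and 3073 ± 633). Its ranges overlap, since mdx replicates 2 and 4 reach the values of the other group. Pecam1 had a log2 fold change of 0.16 (SE 0.18, 95% interval -0.25 to 0.56, adjusted p = 0.579). Cdh5 (VE-cadherin), the adherens junction cadherin of endothelium, had 3503, 2681 and 3691, against 2822, 3733, 3351 and 5395 in the mdx libraries (mean 3292 ± 537 and 3825 ± 1111). The mdx replicates 2 and 4 stand above the range of the libraries labelled mdx/Runx1f/f, and no mdx library stands below it. Its log2 fold change was -0.21 (SE 0.23, 95% interval -0.74 to 0.32, adjusted p = 0.575). Esam, an immunoglobulin-type adhesion molecule of tight junctions, was the steadiest member at 1041, 1192 and 1165 in the libraries labelled mdx/Runx1f/f, against 1039, 1133, 1035 and 1428 in the mdx libraries (mean 1133 ± 80.6 and 1159 ± 186). Its log2 fold change was -0.03 (SE 0.13, 95% interval -0.33 to 0.28, adjusted p = 0.915), and its sign changed under several settings, so no direction is given.

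Eng and Egfl7 also overlapped between the groups. Eng (endoglin), a co-receptor for BMP9 and BMP10 that is mutated in hereditary haemorrhagic telangiectasia, had 2038, 2219 and 2718 normalised counts in the libraries labelled mdx/Runx1f/f, against 1502, 2397, 1756 and 2335 in the mdx libraries (mean 2325 ± 352 and 1997 ± 438). Eng had a log2 fold change of 0.23 (SE 0.19, 95% interval -0.20 to 0.66, adjusted p = 0.445). Egfl7, a matrix protein secreted by endothelium, had 1341, 1116 and 1375, against 1138, 1446, 1337 and 1713 in the mdx libraries (mean 1277 ± 141 and 1409 ± 240). In Egfl7, mdx replicates 2 and 4 were above the highest library labelled mdx/Runx1f/f, with a log2 fold change of -0.13 (SE 0.15, 95% interval -0.48 to 0.22, adjusted p = 0.589). An intron of Egfl7 holds miR-126, an abundant endothelial miRNA that tunes VEGF signalling. Its mature sequence from RefSeq is shown because the host gene is a member, at chr2:26591402-26591423 on the plus strand of GRCm38.p6, with the seed (bases 2 to 8) in capitals; the level of the mature miRNA was not analysed here.
mmu-miR-126a-3p: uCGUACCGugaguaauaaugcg

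Vwf, the multimeric glycoprotein that tethers platelets and is stored in the Weibel-Palade bodies of endothelial cells, was the exception. It had 1575, 1788 and 2321 normalised counts in the libraries labelled mdx/Runx1f/f, against 1212, 1079, 874 and 933 in the mdx libraries (mean 1895 ± 384 and 1024 ± 152, SD, n = 3 and 4). The groups do not overlap, which was true of 27.4% of all genes tested and of 1 of the 10 members. Its log2 fold change was 0.89 (SE 0.16, 95% interval 0.52 to 1.27, adjusted p = 0.0243, higher in 3 of 3 libraries). Within animals 358 to 363 the log2 fold change was 0.57 (adjusted p = 0.162), within animals 373 to 375 it was 1.36 (adjusted p = 0.00021, with the lone library labelled mdx/Runx1f/f assumed to vary like the others), and with the series as a covariate it was 0.89 (adjusted p = 0.0207). The call did not hold without mdx/Runx1f/f replicate 2 (0.94, adjusted p = 0.0624) or without mdx replicate 2, 3 or 4 (0.92, 0.83 and 0.85, adjusted p = 0.0552, 0.0663 and 0.0631), nor with mdx/Runx1f/f replicate 3 alone against mdx (1.18, adjusted p = 0.0626), while the direction stayed. Over the alternatives tried for Vwf the adjusted p was between 8.95e-05 (DESeq2) and 0.162.

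Genes of other cell types were compared between the same groups. By edgeR, calls came only from the fibro-adipogenic, macrophage and Schwann cell lists. Among all genes tested, edgeR called 5.1% higher and 1.85% lower. The lists were chosen with earlier results of these data known. Platelets also carry Vwf: of 10 platelet genes 3 were tested and 0 called (1 at an unadjusted p below 0.05, 1 by DESeq2 and 0 by limma-voom), with a median log2 fold change of 0.85. Their summed level was 318 to 940 normalised counts in the libraries labelled mdx/Runx1f/f and 191 to 599 in the mdx libraries. Itga2b, the platelet integrin alpha-IIb, had 39.2, 33.4 and 26.0 in the libraries labelled mdx/Runx1f/f, against 20.1, 18.8, 16.6 and 13.8 in the mdx libraries. Its groups do not overlap, and its log2 fold change of 0.93 missed the threshold (adjusted p = 0.0576; 0.0471 by DESeq2 and 0.0454 with the series as a covariate). Pf4, a platelet chemokine, overlapped between the groups at 0.85 (adjusted p = 0.446), Gp1ba was at -0.44 (adjusted p = 0.301), and the 7 untested genes had at most 17.4 in any library, Gp5, Gp9 and Clec1b at most 4.34. Fibro-adipogenic progenitor genes were called higher in 9 of 10 cases (10 at an unadjusted p below 0.05, 10 by DESeq2 and 9 by limma-voom), with sums of 172797 to 198739 in the libraries labelled mdx/Runx1f/f and 55863 to 83023 in the mdx libraries. Macrophage genes were called higher in 4 of 11 (9 at an unadjusted p below 0.05, 6 by DESeq2 and 4 by limma-voom), with sums of 14410 to 38272 against 3467 to 14234. All 4 macrophage calls were lost without mdx/Runx1f/f replicate 1 or 2 or without mdx replicate 2, 3 or 4, and 1 was lost without mdx/Runx1f/f replicate 3. Schwann cell genes were called higher in 3 of 8 (7 at an unadjusted p below 0.05, 7 by DESeq2 and 3 by limma-voom), with sums of 4065 to 4508 against 2384 to 3137, and all 3 calls were lost without mdx replicate 3 and 0 to 2 without another library. Of 4 red cell genes 0 were called (0 also at an unadjusted p below 0.05, by DESeq2 and by limma-voom), with a median log2 fold change of 0.67, and of 13 muscle fibre genes 0 were called (5 at an unadjusted p below 0.05, 3 by DESeq2 and 0 by limma-voom), with a median of -0.31. Their part in the Vwf result was not tested.

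Each member was also set against the other 9 in the same library, as its log2 normalised count minus their mean, which removes what the 10 genes share. The mean of the 10 genes, given as each library's deviation from the mean of all 7 on the log2 scale, was -0.07, -0.08 and 0.25 in the libraries labelled mdx/Runx1f/f, against -0.31, 0.04, -0.14 and 0.31 in the mdx libraries. The highest and lowest are again both mdx libraries. On the relative scale 3 members did not overlap between the groups. Of the 13993 other genes, each set against the mean of all 10 members, 14.2% did not overlap. Members were set against the other 9 only, so these shares are not like for like. Without any such subtraction, 27.4% of all genes tested did not overlap. Vwf was at -0.02 to 0.24 in the libraries labelled mdx/Runx1f/f, against -1.28 to -0.18 in the mdx libraries. Pecam1 was at 1.07 to 1.11, against 0.94 to 1.02 in the mdx libraries. Tie1 was at -0.44 to -0.26, against -0.10 to 0.05 in the mdx libraries. Pecam1 and Tie1 thus separate by genotype label only after the shared level of the group is taken out, by 0.12 and -0.35 on the log2 scale, and the mean of the other 9 includes Vwf. Pecam1 followed the other members most closely, with an SD of 0.07 over the 7 libraries, and Kdr least, with an SD of 0.72. These are descriptions with no test.

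**Figure D2:**
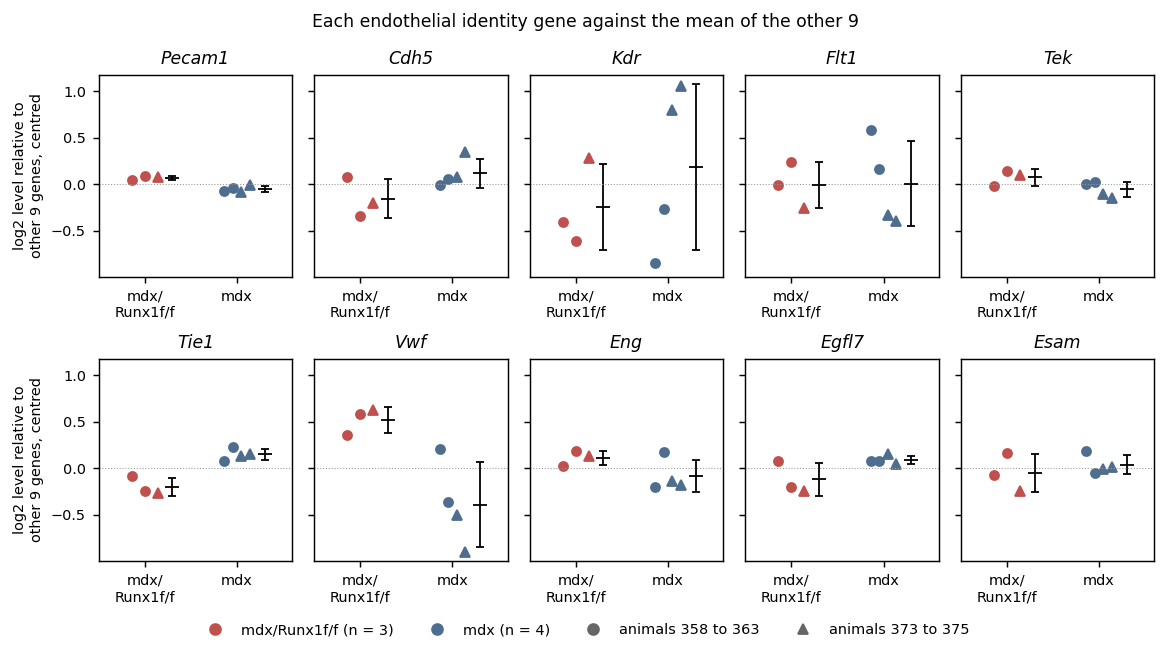
Log2 level of each endothelial identity gene relative to the mean of the other 9 in the same library, centred on the mean of the 7 libraries (y axis, shared by all panels), for mdx/Runx1f/f (left, n = 3) and mdx (right, n = 4); bars are mean and SD, circles animals 358 to 363 and triangles animals 373 to 375. Vwf, Pecam1 and Tie1 do not overlap between the groups, and Kdr has the widest spread, with an SD of 0.72 over the 7 libraries.

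The genes whose log2 CPM over the 7 libraries was most like the mean of the 10 members, among 9963 other tested genes with a mean of at least 100 normalised counts, were Itga1 (Pearson r = 0.982), Ndufa4l2 (0.970), Gimap4 (0.960), Col4a2 (0.958), Meox1 (0.949) and Gch1 (0.948). Itga1 is the collagen-binding integrin alpha-1 and Col4a2 a chain of basement membrane collagen. Ndufa4l2 belongs to the list of pericyte and smooth muscle genes used here, so likeness to the members does not mark a gene as endothelial. None of the 6 was called, and Itga1 had 457, 452 and 658 normalised counts in the libraries labelled mdx/Runx1f/f, against 380.4, 520.1, 405 and 778 in the mdx libraries. All points share the same 7 libraries, so the correlations are a description and carry no p.

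The ligands and co-receptors around these receptors were measured next, and 1 of 11 tested was called lower and 0 higher. At an unadjusted p below 0.05 there were 2 lower and 2 higher, by DESeq2 1 and 1, and by limma-voom 1 and 0. Among all genes tested, edgeR called 1.85% lower and 5.1% higher. Angpt1, the agonist of Tek made mainly by mural and stromal cells, had 239.9, 314 and 400.2 normalised counts in the libraries labelled mdx/Runx1f/f, against 640.3, 846, 803 and 811 in the mdx libraries. The groups do not overlap, and Angpt1 was 2.43-fold lower where the label was mdx/Runx1f/f (log2 fold change -1.28, SE 0.18, adjusted p = 0.0142). The call did not hold without mdx/Runx1f/f replicate 2 (-1.27, adjusted p = 0.0532), within animals 358 to 363 (-1.41, adjusted p = 0.131) or with mdx/Runx1f/f replicate 3 alone against mdx (-0.95, adjusted p = 0.0988), and over its alternatives the adjusted p was between 5.07e-08 (DESeq2) and 0.131. Angpt2, which competes with Angpt1 for Tek and is stored beside Vwf in Weibel-Palade bodies, had 66.6, 102 and 131, against 58.1, 44.9, 59.6 and 59.2 in the mdx libraries. Its groups do not overlap, but its log2 fold change of 0.85 (SE 0.24) missed the threshold at an adjusted p of 0.0704. DESeq2 gave Angpt2 an adjusted p of 0.0257, and with the number series as a covariate edgeR gave 0.0358. Over the settings tried for Angpt2 the adjusted p was between 0.0187 and 0.298.

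The VEGF ligands did not pass the test. Vegfa, the main ligand of Kdr, had 3015, 3465 and 4374 normalised counts in the libraries labelled mdx/Runx1f/f, against 3438, 4528, 6634 and 8141 in the mdx libraries. The groups overlap through mdx replicate 1, at a log2 fold change of -0.65 (SE 0.29, 95% interval -1.32 to 0.03, adjusted p = 0.184). Vegfb, a ligand of Flt1, had 1625, 1459 and 1629.9, against 1936, 1660.5, 2298 and 2218 in the mdx libraries, with no overlap and a log2 fold change of -0.36 (adjusted p = 0.115). Pgf, another ligand of Flt1, had 35.3, 50.8 and 48.8, against 27.5, 21.9, 26.5 and 33.6 in the mdx libraries, also without overlap, at 0.72 (adjusted p = 0.0892). Log2 fold changes were 0.37 and 0.47 for the co-receptors Nrp1 and Nrp2 (adjusted p = 0.174 and 0.216), 0.27 for the lymphatic VEGF receptor Flt4 (adjusted p = 0.240), 0.16 for Vegfc (adjusted p = 0.726) and -0.12 for Figf, the table's name for Vegfd (adjusted p = 0.792). Ptprb, the phosphatase that dephosphorylates Tek, had -0.04 (adjusted p = 0.899), with a sign that changed under library totals, among others. Angpt4 was too low to be tested.

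**Figure D3:**
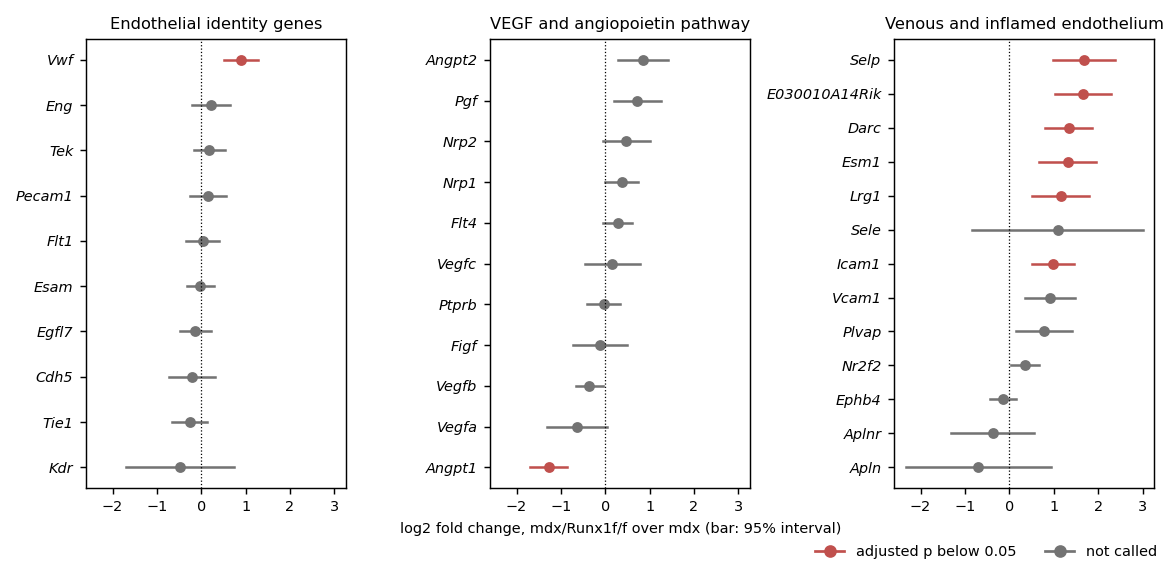
Log2 fold change of mdx/Runx1f/f over mdx (x axis, bars the 95% interval of the edgeR fit) for the endothelial identity genes, for the tested VEGF and angiopoietin genes, and for the tested venous and inflamed endothelial genes other than Vwf; red marks an adjusted p below 0.05. Vwf at 0.89 is the 1 red member, Angpt1 at -1.28 the 1 red ligand, and 6 of 13 venous and inflamed genes are red.

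Genes of veins and inflamed endothelium were the endothelial list with the most calls. Leaving out Vwf, which belongs to that list too, 6 of 13 were called higher and 0 lower (0 lower also at an unadjusted p below 0.05, by DESeq2 and by limma-voom), with a median log2 fold change of 0.98. With Vwf counted, 10 of 14 were higher at an unadjusted p below 0.05, 8 by DESeq2 and 6 by limma-voom. DESeq2 called 10.7% of all genes higher and limma-voom 5.24%. Not all genes of the list moved the same way: log2 fold changes ran from -0.70, which was not called, to 1.69. Among all genes, 5.1% were called higher. The list was chosen with earlier results of these data known, so that share is no fair measure for it. Selp (P-selectin), the leukocyte and platelet tethering receptor kept with Vwf in Weibel-Palade bodies, had 152, 278 and 270.03 normalised counts in the libraries labelled mdx/Runx1f/f, against 62.3, 111, 66.2 and 51.3 in the mdx libraries. Its log2 fold change was 1.69 (SE 0.30, adjusted p = 0.0232), with no overlap. Ackr1, the chemokine scavenger of venules listed as Darc in the table, had 175, 302 and 298, against 90.9, 133, 104 and 83.9 in the mdx libraries. These groups do not overlap either, at a log2 fold change of 1.34 (SE 0.23, adjusted p = 0.0210).

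The other 4 genes of that list that rose were Icam1, a leukocyte adhesion molecule (log2 fold change 0.98, adjusted p = 0.0332), Esm1, a proteoglycan of VEGF-activated endothelium (1.31, adjusted p = 0.0348), Lrg1, a secreted modulator of TGF-beta signalling in vessels (1.15, adjusted p = 0.0477), and E030010A14Rik, a RefSeq synonym of Tmem252 (1.66, adjusted p = 0.0189). Vcam1 at 0.92 (adjusted p = 0.0600) and Plvap, the diaphragm protein of fenestrae and venules, at 0.78 (adjusted p = 0.109) missed the threshold. The vein identity genes Nr2f2 and Ephb4 had 0.35 (adjusted p = 0.14) and -0.14 (adjusted p = 0.478). Other cells express several of these genes as well, Icam1 and Lrg1 among them, and the sums of the macrophage and stromal lists given above moved with the same groups; their part was not tested. None of the 6 calls held whichever library was left out: all 6 were lost without mdx/Runx1f/f replicate 2 and without mdx replicate 3, 4 without mdx/Runx1f/f replicate 3 or mdx replicate 4, 3 without mdx replicate 1, 2 without mdx replicate 2 and 1 without mdx/Runx1f/f replicate 1.

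The 250 bases before the start of Selp and Ackr1 are shown to set genes that rose beside the receptors above, with the same ETS letters in capitals. They lie at chr1:164115014-164115263 on the plus strand for Selp and chr1:173333504-173333753 on the minus strand for Ackr1 in GRCm38.p6.
Selp: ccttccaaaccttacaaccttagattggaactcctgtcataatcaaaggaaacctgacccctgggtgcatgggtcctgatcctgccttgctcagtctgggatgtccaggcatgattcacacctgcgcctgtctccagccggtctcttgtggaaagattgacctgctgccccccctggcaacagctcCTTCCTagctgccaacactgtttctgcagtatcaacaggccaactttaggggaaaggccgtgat
Ackr1: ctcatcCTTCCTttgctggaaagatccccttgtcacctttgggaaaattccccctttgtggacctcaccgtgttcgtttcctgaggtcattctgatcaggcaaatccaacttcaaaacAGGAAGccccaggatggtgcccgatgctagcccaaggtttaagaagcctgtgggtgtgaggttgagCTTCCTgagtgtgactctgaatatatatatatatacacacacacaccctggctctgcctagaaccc
Selp has 1 match and Ackr1 has 3, and neither holds TGTGGT or its reverse complement. Windows with the ETS letters are thus found both among genes that were called and among members that were not.

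Eng acts in the BMP and TGF-beta pathway, where 3 of 17 tested genes were called higher and 0 lower. Among all genes tested, edgeR called 5.1% higher and 1.85% lower. At an unadjusted p below 0.05 there were 6 higher and 0 lower, by DESeq2 4 and 0, and by limma-voom 3 and 0. DESeq2 called 10.7% of all genes higher and limma-voom 5.24%. The median log2 fold change of the list was 0.39. Id2, a helix-loop-helix inhibitor induced by BMP, had 248, 254 and 279.8 normalised counts in the libraries labelled mdx/Runx1f/f, against 127, 94.0, 87.2 and 98.7 in the mdx libraries. The groups are far apart, at a log2 fold change of 1.36 (SE 0.15, adjusted p = 0.00842). Bmper, a secreted BMP-binding protein, was higher by 1.61 (SE 0.24, adjusted p = 0.0157) and Tgfbr2, the type II TGF-beta receptor, by 0.82 (SE 0.17, adjusted p = 0.0321). Id2 and Bmper kept their calls whichever library was left out, Bmper with an adjusted p of up to 0.0499. Neither call held within animals 358 to 363 (1.20 and 1.49, adjusted p = 0.136 and 0.131). With mdx/Runx1f/f replicate 3 alone against mdx, Id2 was at 1.46 and Bmper at 1.22. Tgfbr2 lost its call in 5 of 7 cases when a library was left out. Many cell types of muscle express these 3 genes. Id3 and Tgfbr1 had 0.85 and 0.51 (adjusted p = 0.0966 and 0.0990).

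Most other pan-endothelial genes were like the 9 uncalled members in not passing the test. Among 29 further junction and surface genes 1 was called lower and 0 higher (3 lower and 3 higher at an unadjusted p below 0.05; 1 lower by DESeq2 and by limma-voom, and 1 and 0 higher), with a median of 0.02. The called gene was Palmd, a paralemmin relative, at -0.59 (adjusted p = 0.0496), a call lost in 6 of 7 cases when a library was left out. Of 21 endothelial transcription factor genes 1 was called, Meox2 at 0.44 (adjusted p = 0.0395), and that call was lost in 7 of 7 cases. The median of those 21 was 0.13. These counts of calls stand beside 5.1% of all genes called higher and 1.85% lower. Lmo2 and Lyl1, partners in a blood and vessel transcription complex, had 0.35 and 0.82 (adjusted p = 0.0658 and 0.102).

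By vessel type, 14 capillary genes gave 1 call higher, Meox2 again, and 1 lower, with a median of -0.14. The one lower was Car4, a carbonic anhydrase on the capillary surface, which had 169, 161 and 119 normalised counts in the libraries labelled mdx/Runx1f/f, against 276, 268, 224 and 236 in the mdx libraries. The groups do not overlap, Car4 was at -0.73 on the log2 scale (SE 0.16, adjusted p = 0.0342) and the call was lost in 6 of 7 cases. Lpl and Cd36, which handle lipid at capillaries and are also made by muscle fibres, had -0.72 and -0.40 (adjusted p = 0.0689 and 0.135). Of 15 arterial genes 0 were called (2 at an unadjusted p below 0.05; 1 by DESeq2 and 0 by limma-voom), with a median of 0.20; Fbln5 and Sema3g were nearest, at 0.63 and 0.49 (adjusted p = 0.0578 and 0.111). Of 6 lymphatic genes 1 was called higher, the matrix protein gene Reln at 0.83 (adjusted p = 0.0443). This call was lost in 6 of 7 cases when a library was left out. Pdpn had 0.94 and the lymphatic master regulator Prox1 -0.998 (adjusted p = 0.0799 and 0.109). Whole-muscle counts do not show which cells the RNA of these lymphatic genes came from. Of 14 pericyte and smooth muscle genes 0 were called (6 at an unadjusted p below 0.05; 2 by DESeq2 and 0 by limma-voom), with Acta2 at 0.78 and Notch3 at 0.47 (adjusted p = 0.0518 and 0.0673). Some genes stand in more than 1 of these lists. Among all genes tested, edgeR called 5.1% higher and 1.85% lower.

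**Figure D4:**
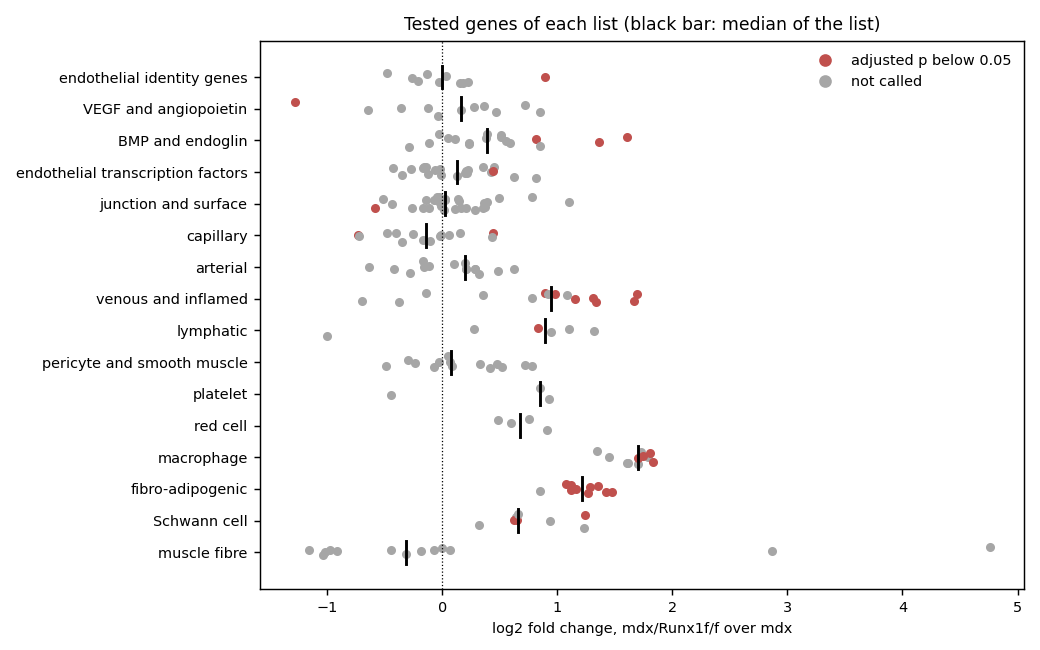
Log2 fold change of mdx/Runx1f/f over mdx (x axis) of every tested gene of each list, 1 point per gene, red where the adjusted p is below 0.05, with a black bar at the list's median. The endothelial identity genes centre on 0 with a median of 0.0020, while the medians of the venous and inflamed, macrophage and fibro-adipogenic lists lie at 0.95, 1.70 and 1.21.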

How the data were processed

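The authors' deposited table covers 7 libraries and 29869 genes, listed by symbol. Its raw counts are reads per gene; the submitters' processing notes name TopHat2 2.0.10, HTSeq, DESeq2 1.6.3 and mm9. Another block is a signal, the counts that the authors divided by 1 size factor per library before they deposited it (normalised counts in the text). RNA came from whole muscle (5PRIME PerfectPure kit, Illumina TruSeq libraries, per the labels' protocols). Annotation, strand setting and filters: not given in the sources used here, so counts of overlapping genes or near-identical copies are uncertain.

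Titles, which name 7 animals, gave the groups and replicate numbers. Every pair of libraries differed beyond sampling noise (lowest chi-square 15.9 per degree of freedom). Raw counts were fitted in R 4.3.3 with edgeR 4.0.16: TMM, filterByExpr, a quasi-likelihood test and no term but group. P-values were adjusted by Benjamini-Hochberg over 14033 filtered genes with 99.9% of the counts. The SE of a log2 fold change is its size over the square root of F, and total counts per library of 16218306 to 20847902 limit the precision of low genes. DESeq2 1.42.0, limma-voom (limma 3.58.1), other scalings and filters, the replicate block, the animal number series and libraries left out were alternatives. The fit was tested on simulated data. A first version exceeded its limit for false calls, and that limit was then applied to the mean of several draws.

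The members and the 17 gene lists, of whose 212 genes 209 were in the table, were chosen with earlier results of these data known. Genes named are Runx1, the 10 members, the VEGF and angiopoietin list, up to 6 called genes and the 2 nearest uncalled genes of each other list, Myh4, and the 6 genes most like the members' mean. Beyond that rule, Erg, Fli1, Nr2f2, Ephb4, Pf4 and the platelet genes near 0 are named because of what they are known for, after their values were seen, and not every gene the rule gives is printed. Sequences come from RefSeq (GRCm38.p6); no coordinates were converted from mm9.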

Additional observations from a re-analysis of the deposited data

Results flagged for a closer look

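In the 4 mdx libraries, 80 named genes were checked for a library far from the others, and 2 stood out. About 1 in 20 of the genes checked would show such a gap by chance, so 2 of 80 is not more than that share. Angpt2 had 44.9 normalised counts in mdx replicate 2, while the other mdx libraries lay between 58.1 and 59.6. Lum, a matrix proteoglycan gene of the fibro-adipogenic list, had 1242 normalised counts in mdx replicate 3, against 1483 to 1498 in the other mdx libraries. None of the 10 endothelial identity genes was among the 2.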

How the results depend on the processing

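The alternative that sets mdx/Runx1f/f replicate 3 alone against mdx was added after seeing the data, because replicates 1 and 2 stand apart in Myh4; in it and in animals 373 to 375 alone, the lone library is assumed to vary like the others. Of 180 member values under the alternatives, 158 kept their direction and side of the threshold, 7 lost the call and 15 changed sign; of 1246 values of other named genes, 976 kept both, 171 lost and 63 gained a call and 36 changed sign. The causes were not tested. Of 29 called named genes, 8 stayed called in each of the 7 fits without 1 library. Library totals moved the median of all genes to 0.10 (log2).

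Over all genes, 715 were called higher and 260 lower. The counts were 1499 and 887 with DESeq2, 1246 and 582 with the number series as covariate, 1361 and 440 in animals 373 to 375 alone, 96 and 2 with mdx/Runx1f/f replicate 3 alone against mdx, and 131 lower with library totals. In animals 358 to 363 alone edgeR called 0 and 0 (1658 higher and 1011 lower at an unadjusted p below 0.05). Leaving out 1 library gave 173 to 641 higher and 17 to 209 lower. Whether the replicate numbers pair the samples was not settled. Deviations of same-numbered libraries from their group means correlated at -0.00687, 0.241 and 0.275. Those of other pairs correlated at -0.46 to 0.506, the highest being mdx/Runx1f/f replicate 2 with mdx replicate 1. Deviations within groups this small are tied to one another, so these correlations cannot exclude a pairing. With the number as a replicate block, 240 were called higher and 80 lower, and 0 members (Vwf 0.85, adjusted p = 0.0850).

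Among members, edgeR called 0 higher also in animals 358 to 363 alone and with mdx/Runx1f/f replicate 3 alone (Vwf 1.18, adjusted p = 0.0626; 1 member each at an unadjusted p below 0.05), and 0 to 1 when 1 library was left out. Vwf was higher under all 18 alternatives, at 0.57 to 1.36.

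Log2 fold changes that changed sign are given by setting. Under the replicate block they were Cdh5 0.0021, Kdr 0.047, Esam 0.093, Ptprb 0.032, Gimap4 0.19 and Gch1 0.10. In animals 358 to 363 alone they were Kdr 0.057, Flt1 -0.16 and Esam 0.054. In animals 373 to 375 alone they were Ptprb 0.11, Myh4 -2.24, Gimap4 0.12 and Gch1 0.089. With mdx/Runx1f/f replicate 3 alone they were Kdr 0.12, Esam 0.0089, Myh4 -1.53, Gimap4 0.40 and Gch1 0.15. Library totals gave Esam 0.081, Ptprb 0.056, Gimap4 0.0079 and Gch1 0.093, the 10 CPM filter Esam 0.024 and Ptprb 0.0097, no filter Itga1 -0.00056, and the series covariate Gimap4 0.012 and Gch1 0.018. Leaving out 1 library, the ranges that crossed 0 were Cdh5 -0.34 to 0.0036, Flt1 -0.086 to 0.10, Esam -0.081 to 0.092, Vegfc -0.11 to 0.32, Figf -0.31 to 0.019, Ptprb -0.15 to 0.078, Itga1 -0.20 to 0.27, Ndufa4l2 -0.11 to 0.16, Gimap4 -0.43 to 0.20, Col4a2 -0.19 to 0.39 and Gch1 -0.11 to 0.10.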
